A study of Homo sapiens with 28 samples.

Results

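MTRNR2L loci are copies of the mitochondrial 16S ribosomal RNA gene that lie in the nuclear genome and carry a short reading frame like that of humanin. All rows whose symbol starts with MTRNR2L were taken from the deposited tables, which gave 12 of 16482 genes in the table of all reads and 5 of 13029 in the table of T>C reads. The loci were selected on their high nuclear values in these same libraries, so the contrast between fractions is given below as a description, with no test. T>C reads are reads with T-to-C conversions, which mark RNA made while 4-thiouridine was present.

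The study used MDA-MB-453, an established human breast cancer cell line, in 28 libraries and 10 groups. Cells were kept for 3 h with DMSO (the solvent control), JQ1, JQ1-VHL, IBET151 or IBET151-VHL, and 0.1 mM 4-thiouridine was present for the last 60 min in every group, so no group without it serves as a conversion background. JQ1 and IBET151 inhibit BET bromodomain proteins, and the compounds named with VHL join the same ligands to a ligand of the VHL ubiquitin ligase, a design used to degrade the bound protein. Doses were not in the labels. Drosophila S2 cells were added at 10% before digitonin split each culture into a pellet (here the nuclear fraction) and a supernatant (the cytoplasmic fraction). Each fraction had 3 libraries per treatment, except IBET151 with 2. ERCC RNA was added by mass of RNA, and 3′ end libraries were sequenced as single 100 bp reads. Nothing in the labels says that replicates were separate cultures, so p-values measure the spread between libraries, which may be technical.

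Nuclear libraries held 17851589 to 38658448 reads on listed genes and cytoplasmic libraries 30647584 to 68475299. The markers fitted the labelled cells: all 9 luminal and apocrine breast genes, such as ERBB2 and GATA3, were detected in every library, with a summed nuclear value of 91850 to 687077, against 51.2 to 207 for 3 basal genes, 17.6 to 76.5 for 1 endothelial gene and 2.78 to 53.6 for 3 immune genes. The 4 stromal genes summed to 1480 to 6667, nearly all of it COL1A1. Titles carry library numbers that fall into 4 runs, called A to D here in ascending order. DMSO and JQ1 had libraries in runs A, B and D, the VHL compounds in A, B and C, and IBET151 in B and C.

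Humanin is a short peptide encoded within the mitochondrial 16S ribosomal RNA gene, MT-RNR2, and is known for protecting cells from death by binding pro-apoptotic proteins such as BAX. DNA copies of mitochondrial genes have been inserted into the nuclear chromosomes many times, and the MTRNR2L family is made of copies with a humanin-like frame. In MTRNR2L2 and MTRNR2L4 that frame holds 12 and 13 bases inserted against MT-RNR2. Because the copies still resemble the ribosomal RNA and each other, a short read from one of them, or from MT-RNR2 itself, can be hard to place. The deposited tables held 0 mitochondrially encoded genes and 0 nuclear pseudogenes of mitochondrial genes under their own symbols, so MT-RNR2 could not be read beside its copies.

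The humanin-like frames of the 5 members with the most reads are shown to make visible how closely they match MT-RNR2. All are given 5′ to 3′ on the strand of the gene, from the GENCODE 29 transcripts on GRCh38, with capitals for bases that differ from MT-RNR2 or have no counterpart there. The frames lie at chrM:2633-2707 (plus strand) for MT-RNR2, chr17:22524062-22524136 (plus) for MTRNR2L1 (ENSG00000256618), chr11:10508152-10508226 (minus) for MTRNR2L8 (ENSG00000255823), chr5:80650000-80650086 (minus) for MTRNR2L2 (ENSG00000271043), chrX:55181920-55181994 (minus) for MTRNR2L10 (ENSG00000256045) and chr1:237944252-237944326 (minus) for MTRNR2L11 (ENSG00000270188). The tables were made on GRCh37 and hg19, per the submitters' processing notes, so these positions belong to the printed sequences and not to the counted features.
MT-RNR2: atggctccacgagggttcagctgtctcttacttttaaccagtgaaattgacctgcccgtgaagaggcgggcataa
MTRNR2L1: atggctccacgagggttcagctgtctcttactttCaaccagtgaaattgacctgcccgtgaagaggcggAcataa
MTRNR2L8: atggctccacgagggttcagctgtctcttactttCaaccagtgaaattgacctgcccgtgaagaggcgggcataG
MTRNR2L2: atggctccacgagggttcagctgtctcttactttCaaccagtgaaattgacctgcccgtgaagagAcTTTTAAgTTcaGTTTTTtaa
MTRNR2L10: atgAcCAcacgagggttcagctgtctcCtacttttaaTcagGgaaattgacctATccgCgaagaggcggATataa
MTRNR2L11: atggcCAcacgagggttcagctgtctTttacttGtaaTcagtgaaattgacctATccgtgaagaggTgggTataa

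MTRNR2L1 and MTRNR2L8 each differed from the MT-RNR2 frame at 2 of 75 bases, while MTRNR2L11 differed at 9 and MTRNR2L10 at 11. MTRNR2L2 matched the ribosomal RNA over 65 aligned bases at 98.5% identity and then left it, ending in a frame of 87 bases. Its lower-case bases past that point pair with MT-RNR2 only in an end-to-end alignment of the frames, with 12 inserted bases. Over whole transcripts the members ranged more widely. Identity to MT-RNR2 was 95.0% for MTRNR2L12, 93.0% for MTRNR2L8, 88.5% for MTRNR2L1, 83.9% for MTRNR2L6 and 80.0% for MTRNR2L10. It was 79.4% for MTRNR2L11, 78.6% for MTRNR2L3, 78.2% for MTRNR2L5, 77.9% for MTRNR2L4 and 77.2% for MTRNR2L13.

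A stretch of 100 bases, the length of a read, differed from MT-RNR2 at a median of 4 bases in MTRNR2L12, 6 in MTRNR2L8, 11 in MTRNR2L1, 19 in MTRNR2L10 and 20 in MTRNR2L11. The only stretches of that length found in more than 1 of the transcripts were 10 shared by MTRNR2L8 and MTRNR2L12. MTRNR2L10 and MTRNR2L11 were 86.6% identical to each other, and MTRNR2L1 and MTRNR2L8 87.9%. GENCODE 29 annotates only the frame of MTRNR2L2 and MTRNR2L9, as processed pseudogenes, so their flanks were not compared.

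The loci are scattered over 12 chromosomes. In GENCODE 29 MTRNR2L3, MTRNR2L4 and MTRNR2L5 lie in introns of RAE1, AC025283.3 and PCDH15 on the opposite strand, and MTRNR2L1 overlaps an exon of the antisense gene AC132825.2. The transcripts of MTRNR2L8 and MTRNR2L13 overlap the miRNA genes MIR4485 and MIR1973. MTRNR2L6, MTRNR2L9, MTRNR2L10, MTRNR2L11 and MTRNR2L12 overlapped no other annotated gene. Whether reads were counted by strand is not given in the sources used here.

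Reads were very uneven across the family. MTRNR2L2 had 8035 to 17132 reads in each nuclear library (median 13398) and MTRNR2L1 had 7940 to 16226 (median 11632). MTRNR2L11 followed with 971 to 2809 (median 2224), MTRNR2L8 with 711 to 1248 (median 958) and MTRNR2L10 with 337 to 582 (median 538). These are reads from 3′ ends, so they were not divided by gene length, and the lengths of the counted models are not given in the sources used here. MTRNR2L1 and MTRNR2L2 together made up most of the family, at 33.7 to 49.4% and 34.0 to 56.7% of its nuclear reads.

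The other 7 loci had few reads. MTRNR2L9 had 31 to 78 nuclear reads per library and MTRNR2L6 had 8 to 29. MTRNR2L3, MTRNR2L4 and MTRNR2L12 had at most 14, 13 and 9 reads, and MTRNR2L5 and MTRNR2L13 at most 5 each, with 4 nuclear libraries at 0 for both. MTRNR2L12, the copy closest to MT-RNR2 over its whole transcript, had 62 nuclear reads in all 14 libraries together. Its transcript aligned to bases 1 to 1048 of MT-RNR2 and did not reach the last 511, while the libraries read 3′ ends. The count therefore does not show how closeness to the ribosomal RNA bears on the number of reads.

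All 5 main members sat far higher in the nuclear than in the cytoplasmic fraction, in every library and under every treatment, and their ranges did not overlap. The share of all genes whose ranges also did not overlap was not counted. In DMSO the median gene was itself 1.26 higher in the nuclear fraction on the log2(value + 1) scale. Nuclear here means the digitonin pellet. Whether that pellet also held mitochondria was not tested, and 0 mitochondrially encoded genes were listed to show it. In the nuclear DMSO libraries MTRNR2L1 had values (ERCC-scaled units as deposited) of 8271, 20679 and 22192, against 159, 167 and 509 in the cytoplasmic ones. MTRNR2L2 had nuclear values of 13929, 30305 and 18501 and cytoplasmic values of 219, 241 and 247. The ratio of the DMSO means was 61.2 for MTRNR2L1 and 88.7 for MTRNR2L2.

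The smaller members had similar ratios. In DMSO, nuclear MTRNR2L11 had values of 901, 4176 and 4504 and cytoplasmic 36.2, 27.9 and 101, a ratio of means of 58.1. MTRNR2L8 had 850, 1689 and 2390 in the nuclear and 19.3, 16.9 and 16.0 in the cytoplasmic libraries, a ratio of 94.3. MTRNR2L10 had 540, 952 and 1030 against 11.3, 1.69 and 17.1, a ratio of 84.0. The cytoplasmic values of MTRNR2L8 and MTRNR2L10 rest on few reads, 5 to 87 and 2 to 40 per library.

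On the log2(value + 1) scale, the nuclear minus cytoplasmic difference in DMSO was 6.59 for MTRNR2L10, 6.39 for MTRNR2L2, 6.36 for MTRNR2L8, 6.02 for MTRNR2L1 and 5.75 for MTRNR2L11. Across the 3 replicate numbers its SD was 0.51 for MTRNR2L2 to 1.64 for MTRNR2L10, so neighbours in that order did not differ beyond their spread. Among 14458 genes, whose median difference was 1.26, the 5 members ranked 1, 2, 4, 7 and 13 from the top in DMSO, MTRNR2L9 ranked 19 and MTRNR2L6 ranked 159. MALAT1, a long non-coding RNA known to stay in the nucleus, ranked 221 with a ratio of 18.2, and NEAT1, the scaffold RNA of paraspeckles, ranked 1076 with a ratio of 9.17. Under the 4 drugs the 5 members ranked between 1 and 19. These ranks set the pellet against the supernatant and do not show where in the pellet an RNA lay.

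Since the ERCC RNA was dosed by RNA mass, a difference between fractions is one per mass of RNA. RPM scales each library to its own listed reads. On the log2(RPM + 1) scale the median difference of the 5 members was 4.53, that of MTRNR2L8, instead of 6.36. Cytoplasmic RPM of MTRNR2L8 averaged 0.527 in run A and 0.501 in run B, so the added 1 itself lowers that difference. MTRNR2L2, with 7.09 to 9.39 cytoplasmic RPM in DMSO, had 5.71 instead of 6.39. How much of the drop comes from the scaling was not separated. In these bulk samples, fewer cells that hold an RNA and less of it per cell cannot be told apart. The family took 0.0615 to 0.191% of listed reads in the nuclear libraries (median 0.118%) and 0.00105 to 0.00339% in the cytoplasmic ones (median 0.00177%).

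**Figure D1:**
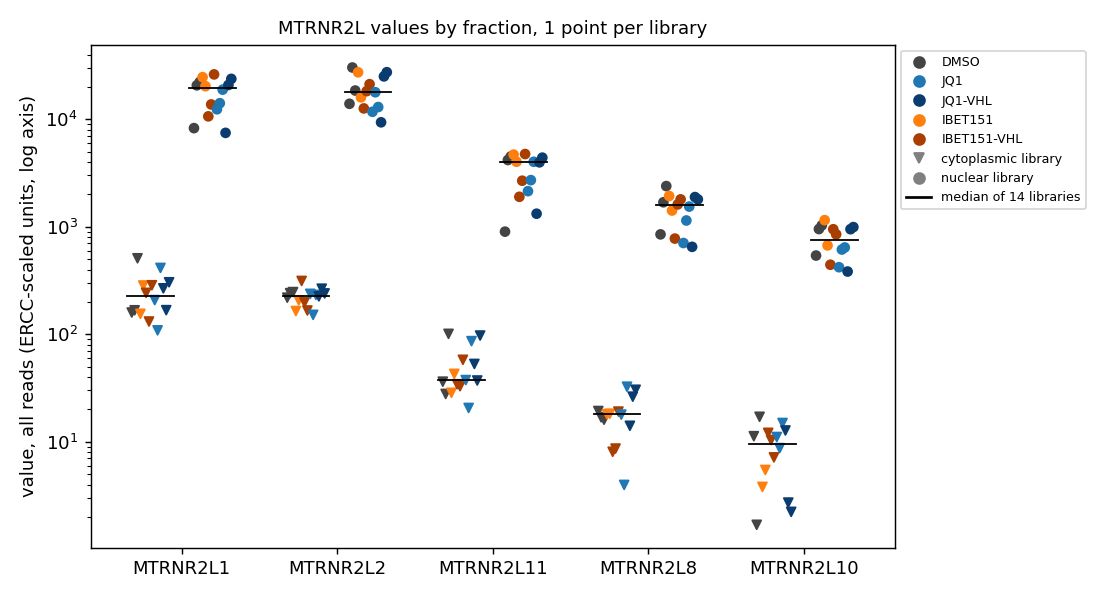
Values of the 5 most abundant MTRNR2L members in all reads (ERCC-scaled units, log axis), with 1 point per library, triangles for cytoplasmic and circles for nuclear libraries, colours for treatments and bars for the median of 14 libraries. Nuclear MTRNR2L1 lies between 7471 and 26141 and cytoplasmic MTRNR2L1 between 109 and 509, and the fractions do not overlap for any of the 5. The share of all genes without such overlap was not counted.

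The question of the drug comparisons was whether BET inhibitors or degraders moved these loci within 3 h. In the nuclear fraction no member passed the test under any drug. MTRNR2L1 had values of 12382, 14109 and 18865 under JQ1, 7471, 20845 and 23751 under JQ1-VHL, 24642 and 20308 under IBET151, and 10641, 13736 and 26141 under IBET151-VHL. The lowest DMSO library, at 8271, lay below all but 1 of these 11, and the means ran from 15119 ± 3357 (SD, n = 3) under JQ1 to 22475 ± 3065 (SD, n = 2) under IBET151, beside 17047 ± 7638 (SD, n = 3) in DMSO. The ranges of all 4 drugs overlapped the DMSO range.

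MTRNR2L2 had nuclear values of 11738, 17828 and 12989 under JQ1 and 9369, 25047 and 27405 under JQ1-VHL. Its values were 27335 and 15996 under IBET151 and 12612, 18258 and 21204 under IBET151-VHL. DMSO averaged 20912 ± 8450 (SD, n = 3) and JQ1 14185 ± 3217 (SD, n = 3), and the highest JQ1 library lay above the lowest DMSO library. Within each of the 3 runs that held both, the JQ1 library was below the DMSO library.

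MTRNR2L11 had nuclear values of 2144, 2715 and 4024 under JQ1, 1322, 3974 and 4394 under JQ1-VHL, 4688 and 4025 under IBET151, and 1900, 2681 and 4747 under IBET151-VHL. MTRNR2L8 ranged over the drug libraries from 650 to 1933 and MTRNR2L10 from 383 to 1152, against 850 to 2390 and 540 to 1030 in DMSO. For each of these 3 members the drug ranges overlapped the DMSO range.

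In the linear model of nuclear all reads (limma, adjusted over 14417 genes), 0 of 40 tests on the 10 members that passed the filter on low values were called, and 0 had an unadjusted p under 0.05. edgeR and DESeq2 on the recovered reads also called 0. Of all genes, JQ1 called 0.0694%, JQ1-VHL 1.97%, IBET151 0.0971% and IBET151-VHL 4.55%, so a count of 0 among 10 members is near the background. The changes of the 5 main members ran from -0.56 (MTRNR2L10 under JQ1) to 0.76 (MTRNR2L11 under IBET151) on the log2 scale. MTRNR2L2 changed by -0.51 under JQ1 with a 95% interval of -1.99 to 0.98, and MTRNR2L1 by 0.0032 under IBET151-VHL with an interval of -1.49 to 1.50. Intervals of this width do not show that the levels stayed the same.

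The median change of all genes in the nuclear fraction was -0.43 under JQ1, -0.48 under JQ1-VHL, 0.054 under IBET151 and -0.71 under IBET151-VHL. Under JQ1, MTRNR2L2 (-0.51), MTRNR2L8 (-0.49) and MTRNR2L10 (-0.56) were close to that median, while MTRNR2L1 (-0.07) and MTRNR2L11 (0.16) were above it. With the run as a block in the model, these 3 passed under JQ1, with the same log2 changes and adjusted p of 0.0295 for MTRNR2L2, 0.0495 for MTRNR2L8 and 0.0445 for MTRNR2L10 in limma. That model called 35.1% of all genes under JQ1, and its median over all genes was also -0.43.

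**Figure D2:**
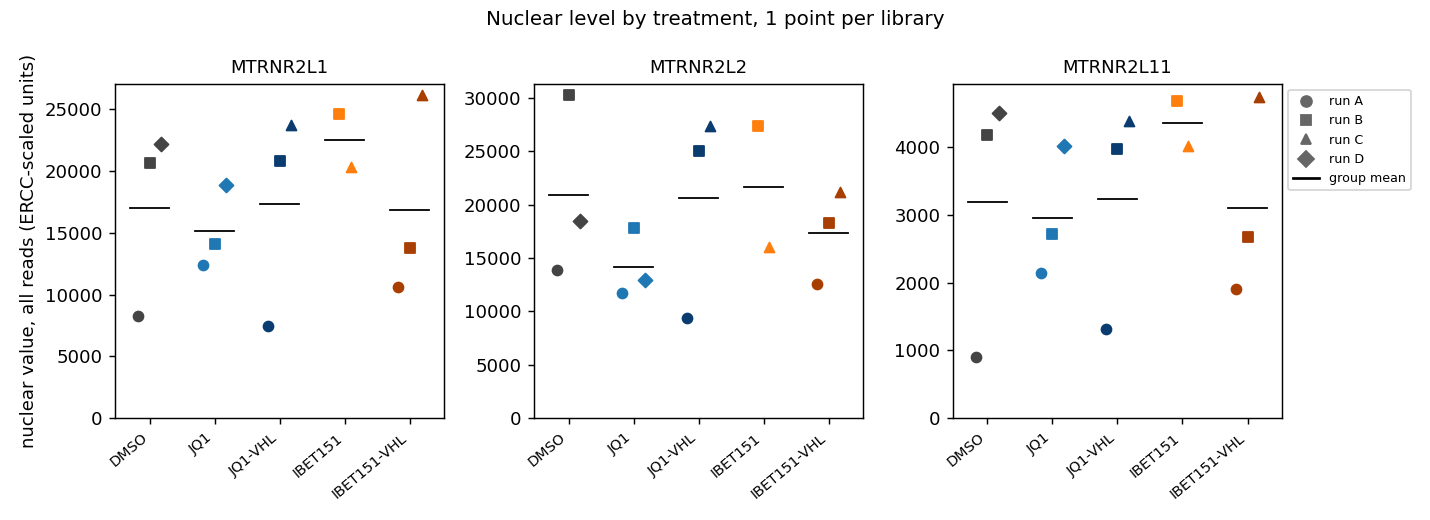
Nuclear values of MTRNR2L1, MTRNR2L2 and MTRNR2L11 in all reads (ERCC-scaled units) by treatment, with 1 point per library, bars for group means and marker shapes for the run of library numbers. For MTRNR2L1 the 4 libraries of run A are the lowest of their treatments, at 7471 to 12382, and the libraries of runs B to D lie at 13736 and above.

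For MTRNR2L1, the spread within treatments followed the runs. Nuclear MTRNR2L1 was 7471 to 12382 in the 4 libraries of run A, 13736 to 24642 in the 5 of run B, 20308 to 26141 in the 3 of run C and 18865 to 22192 in the 2 of run D. Run A was lowest and did not overlap the others. In RPM the order was different, at 371 to 782 in run A, 345 to 597 in run B, 371 to 597 in run C and 304 to 327 in run D, so run A no longer stood below. Whether this part of the spread comes from the ERCC scaling was not tested. For nuclear MTRNR2L2, run A (9369 to 13929) overlapped run D (12989 to 18501).

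The members did not move with the runs in the same way. MTRNR2L2 had 0.948 to 1.68 reads per read of MTRNR2L1 in the nuclear libraries of run A and 1.11 to 1.47 in run B. In run C the ratio was 0.788 to 1.15 and in run D 0.689 to 0.834. In the cytoplasmic libraries the ratio was again low in run D, at 0.485 to 0.561, and high in run B, at 1.06 to 1.58. This ratio is taken within a library, so the scaling cancels in it.

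**Figure D3:**
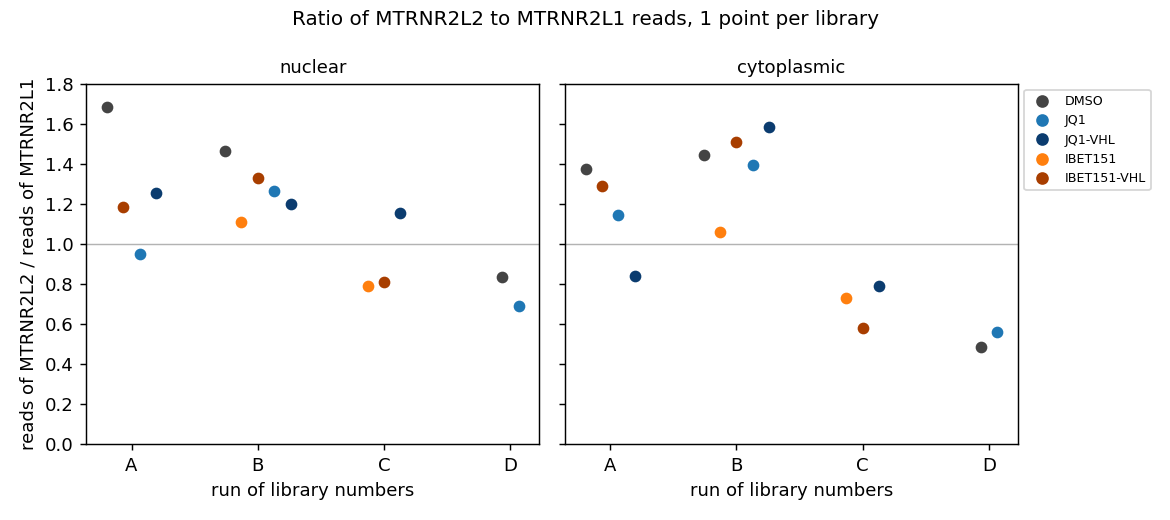
Reads of MTRNR2L2 per read of MTRNR2L1 by run of library numbers, in nuclear (left) and cytoplasmic (right) libraries, with 1 point per library coloured by treatment and a line at 1. All libraries of run B lie above 1 and all of run D below it in both fractions.

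In the cytoplasmic fraction 5 members were tested and 0 of 20 tests passed, with 0 unadjusted p under 0.05. The background there was higher, at 4.82% of genes under JQ1, 12.9% under JQ1-VHL, 2.52% under IBET151 and 15.8% under IBET151-VHL. Cytoplasmic MTRNR2L2 was 238, 152 and 233 under JQ1, 225, 265 and 240 under JQ1-VHL, 165 and 207 under IBET151, and 313, 198 and 166 under IBET151-VHL. Its change under JQ1-VHL was 0.05, with a 95% interval of -0.48 to 0.57, and -0.11 under IBET151-VHL, with an interval of -0.64 to 0.41. These were the narrowest intervals of any member in the cytoplasmic fraction, and MTRNR2L1 had -0.19 under IBET151-VHL with an interval of -1.28 to 0.89.

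Degraders were compared with the inhibitors they derive from, and the compounds of each kind with each other, at the same 3 h but at doses the labels do not give. In the nuclear fraction 0 of 40 member tests passed (0 with an unadjusted p under 0.05). The background was 0.298% for JQ1-VHL against JQ1, 0.541% for IBET151-VHL against IBET151, and 0% for both IBET151 against JQ1 and IBET151-VHL against JQ1-VHL. MTRNR2L2 differed by 0.41 between JQ1-VHL and JQ1, with an interval of -1.07 to 1.90, and by -0.30 between IBET151-VHL and IBET151, with an interval of -1.96 to 1.36. In the cytoplasmic fraction 0 of 20 passed (0 with an unadjusted p under 0.05), beside 4.23%, 7.91%, 0% and 0.016% of all genes in the same order. The interaction test of drug effect and fraction called 0 of 40 member tests (0 with an unadjusted p under 0.05). Of all genes, that test called 0% for JQ1, JQ1-VHL and IBET151 and 0.00692% for IBET151-VHL.

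T>C reads of these loci were rare. MTRNR2L1 had 32 T>C reads among 160879 nuclear reads over all 14 libraries, a share of 0.0199% with an exact (Clopper-Pearson) 95% interval of 0.0136 to 0.0281% that covers counting error only. Among 10578 genes with at least 1000 nuclear reads and a row in the T>C table, this was the lowest share, and the median gene had 4.56%. MTRNR2L8 had 10 T>C reads of 13169, or 0.0759% (0.0364 to 0.140%), and ranked 6 from the lowest.

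MTRNR2L2, with more reads than MTRNR2L1, had a share about an order of magnitude higher, at 371 T>C reads of 177990, or 0.208% (0.188 to 0.231%). It ranked 60 from the lowest. MTRNR2L10 had 30 of 7063, or 0.425% (0.287 to 0.606%), and ranked 220. These intervals pool the treatments, and the order of the loci did not hold in every treatment. The share of MTRNR2L1 lay below that of MTRNR2L2 in all 5 treatments, with no overlap of their exact intervals. MTRNR2L8 had 0.239% under IBET151, beside 0.241% for MTRNR2L2. MTRNR2L10 had 0.181% in DMSO and 0.263% under JQ1-VHL, beside 0.177% and 0.263% for MTRNR2L2, and 15 of its 30 T>C reads came from IBET151-VHL.

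MTRNR2L11 had no row in the T>C table, although it had 29845 nuclear reads. Of 2825 genes with at least as many nuclear reads, 2 lacked such a row, MTRNR2L11 included. The lowest sum over libraries of any gene listed in the T>C table was 1 read. MTRNR2L4 was the opposite case, with 22 T>C reads among only 74 nuclear reads, or 29.7% (19.7 to 41.5%).

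In the cytoplasmic libraries MTRNR2L1 had 1 T>C read of 5330, and MTRNR2L2, MTRNR2L8 and MTRNR2L10 had 0 of 4453, 0 of 372 and 0 of 190. With 3 counts as the limit that a count of 0 allows, the shares could reach 0.0674%, 0.806% and 1.58%, and the exact 95% intervals end at 0.0828%, 0.987% and 1.92%, while the median gene with at least 1000 cytoplasmic reads had 0.341%. For MTRNR2L2 the cytoplasmic share was thus below the median gene, and for MTRNR2L8 and MTRNR2L10 the depth cannot show it.

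Sequence gives a further value to set beside these shares. A read of MT-RNR2 placed on a copy shows T-to-C mismatches wherever the copy has T and the ribosomal RNA has C. MTRNR2L1 has 49 such positions among the 359 T of its aligned part, MTRNR2L8 30 among 278, MTRNR2L10 81 among 397, MTRNR2L11 87 among 408 and MTRNR2L4 42 among 174. The aligned part of MTRNR2L2 has 0, but among only 17 T over 65 bases, and its flanks were not compared. These counts run over whole aligned parts, whereas the reads came from 3′ ends, and positions in the sequenced stretch were not counted apart. How the authors told T>C reads from mismatches is not given in the sources used here. The part of reads from MT-RNR2 in any of these values was not tested.

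The T>C share of whole libraries was lower under IBET151-VHL than in DMSO, with no overlap, while the MTRNR2L2 share of the same groups overlapped. In the nuclear DMSO libraries 8.02, 6.34 and 2.25% of all listed reads were T>C reads, against 1.72, 1.33 and 1.10% under IBET151-VHL and 1.92, 2.36 and 2.41% under JQ1-VHL. The MTRNR2L2 share in the same libraries was 0.193, 0.216 and 0.0828% in DMSO, 0.222, 0.256 and 0.169% under IBET151-VHL, and 0.243, 0.295 and 0.251% under JQ1-VHL. It was 0.202, 0.131 and 0.136% under JQ1 and 0.192 and 0.324% under IBET151. The share of the whole library was 27.2 to 41.5 times that of MTRNR2L2 in DMSO and 5.18 to 7.77 times under IBET151-VHL. This ratio was 14.3 to 43.5 under JQ1, 11.3 to 29.1 under IBET151 and 7.88 to 9.57 under JQ1-VHL. Runs A and B held both DMSO and IBET151-VHL. There the library share was 8.02 against 1.72% and 6.34 against 1.33%, and the MTRNR2L2 share was 0.193 against 0.222% and 0.216 against 0.256%.

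Against DMSO, the mean MTRNR2L2 share over the 11 drug libraries was 0.056 percentage points higher, at 0.220% ± 0.062 (SD, n = 11) against 0.164% ± 0.071 (SD, n = 3), with a 2-sided exact permutation p of 0.198. The exact p in nuclear libraries was 0.580 for MTRNR2L1, 0.385 for MTRNR2L10, 0.245 for MTRNR2L8 and 0.901 for MTRNR2L4. Cytoplasmic MTRNR2L1 had an exact p of 0.214. Over these 6 tests the adjusted values ran from 0.489 to 0.901. The smallest p this design allows is 0.00275 where the shares differ between libraries. Cytoplasmic MTRNR2L1 had 1 T>C read in 1 of 14 libraries, so its p could not go below 0.214 and decides nothing. MTRNR2L8 had 0 T>C reads in all 3 DMSO libraries.

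**Figure D4:**
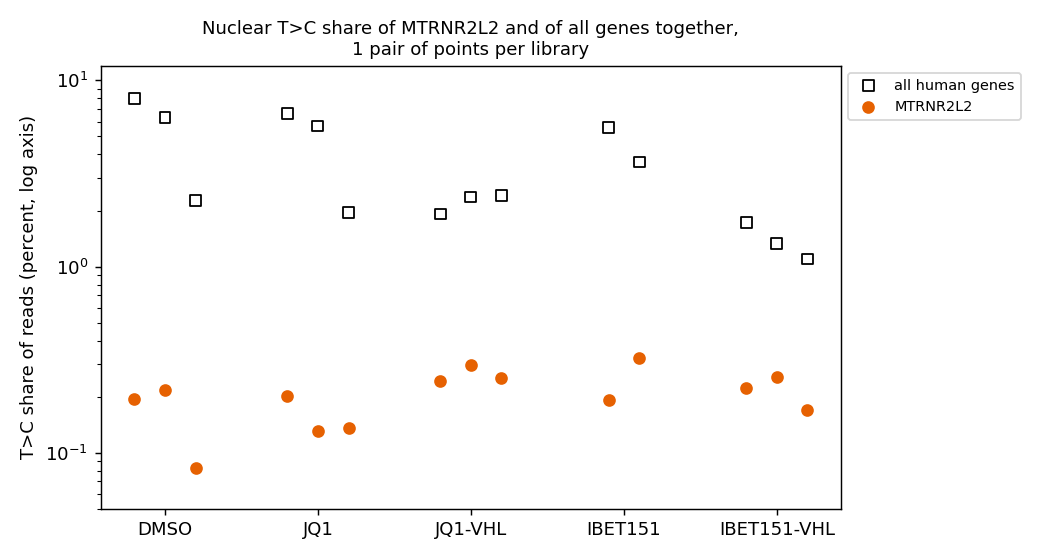
Share of nuclear reads that are T>C reads (percent, log axis) for MTRNR2L2 (filled circles) and for all listed genes together (open squares), with 1 pair of points per library, by treatment. The library share is 2.25 to 8.02% in DMSO and 1.10 to 1.72% under IBET151-VHL, while MTRNR2L2 stays between 0.0828 and 0.324% in all 14 libraries.

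The linear model of nuclear T>C values tested MTRNR2L1, MTRNR2L2, MTRNR2L4 and MTRNR2L10, and 0 of 16 tests against DMSO passed (0 with an unadjusted p under 0.05). The background was wide: 2.41% of genes passed under JQ1, 61.7% under JQ1-VHL, 1.3% under IBET151 and 85% under IBET151-VHL, with a median change of -1.92 under JQ1-VHL and -3.12 under IBET151-VHL. MTRNR2L2 had 29, 37 and 8 T>C reads in the DMSO libraries, 34, 39 and 31 under JQ1-VHL, and 36, 27 and 16 under IBET151-VHL. Its change was 0.68 under JQ1-VHL (95% interval -0.86 to 2.22) and 0.25 under IBET151-VHL (-1.29 to 1.79). Both intervals lie above the median change of all genes. With runs fitted as a block, MTRNR2L4 passed under JQ1-VHL, at -1.77 (limma adjusted p = 0.0484), and under IBET151-VHL, at -2.02 (adjusted p = 0.0238), in a model that called 84.2% and 89.9% of all genes.

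MTRNR2L10 had 0, 1 and 2 T>C reads in DMSO and 6, 1 and 8 under IBET151-VHL, a change of 1.48 (-0.26 to 3.23). MTRNR2L1 had 2, 1 and 2 in DMSO and 0, 5 and 2 under IBET151-VHL, a change of 0.16 (-1.60 to 1.91). With so few reads the log2(value + 1) scale understates changes. MTRNR2L4 changed by -0.80 under IBET151-VHL (-2.53 to 0.92). The DMSO values of MTRNR2L1, MTRNR2L4 and MTRNR2L10 were too low for a fall as large as the median of all genes on this scale, so their place against that median carries no information.

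The calls in T>C reads depended on the scaling. When libraries were scaled to a common median of gene ratios, which moves the median gene to -0.29 under JQ1-VHL and -0.54 under IBET151-VHL, MTRNR2L2 rose by 2.38 under JQ1-VHL (limma adjusted p = 0.00123) and by 3.18 under IBET151-VHL (adjusted p = 2.71e-05). MTRNR2L10 then rose by 3.55 under IBET151-VHL (adjusted p = 0.00718). Under this scaling 14.3% and 41.5% of all genes passed under JQ1-VHL and IBET151-VHL. For IBET151-VHL against IBET151, MTRNR2L2 was then 2.44 higher, against -0.52 with the deposited scaling. These values are changes relative to the typical gene, whereas those of the deposited scaling are relative to ERCC RNA.

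**Figure D5:**
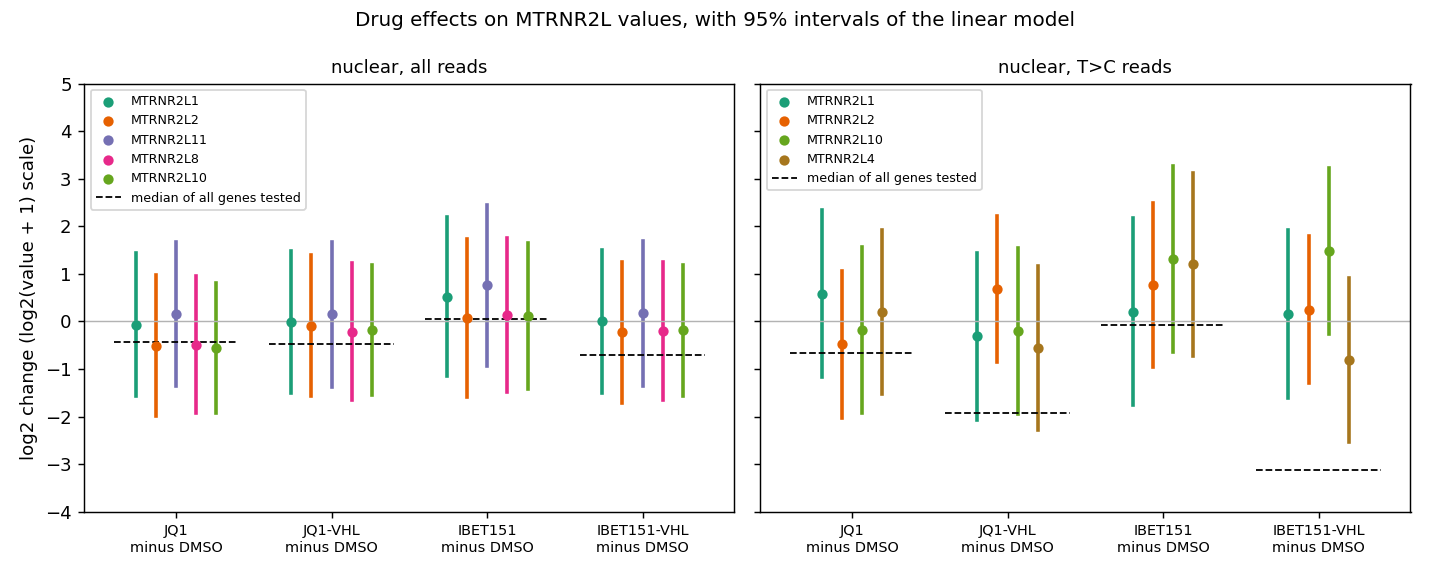
Log2 changes against DMSO in nuclear libraries on the log2(value + 1) scale, for all reads (left) and T>C reads (right), with 95% intervals of the linear model and a dashed line at the median of all genes tested. Under IBET151-VHL the T>C interval of MTRNR2L2 lies above the median of -3.12, a fall that the low DMSO values of the other 3 members could not reach, while in all reads the intervals contain the median.

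Between compounds, 0 of 16 tests of nuclear T>C reads passed, and 1 had an unadjusted p under 0.05. That was MTRNR2L4 under IBET151-VHL against IBET151, at -2.00 (95% interval -3.93 to -0.07) with an adjusted p of 0.0511 in limma, on 1 T>C read in 3 libraries against 5 in 2. Of all genes, 13.3% passed for JQ1-VHL against JQ1, 81.7% for IBET151-VHL against IBET151, 0% for IBET151 against JQ1 and 11% for IBET151-VHL against JQ1-VHL. MTRNR2L2 differed by 1.16 for JQ1-VHL against JQ1 (-0.38 to 2.70) and by -0.52 for IBET151-VHL against IBET151 (-2.24 to 1.20). The interaction with fraction passed for 0 of 16 (0 with an unadjusted p under 0.05), beside 0.191%, 5.68%, 0.0994% and 25.3% of all genes for JQ1, JQ1-VHL, IBET151 and IBET151-VHL. No member passed the filter on low values in cytoplasmic T>C reads, so none was tested there.

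Members varied together to different degrees over the 14 nuclear libraries, which share runs, depth and scaling. Pearson's r of log2 values was 0.97 for MTRNR2L1 with MTRNR2L11, 0.96 for MTRNR2L8 with MTRNR2L10, and 0.90 for MTRNR2L2 with MTRNR2L10. It was lower for MTRNR2L2 with MTRNR2L11, at 0.70, and for MTRNR2L10 with MTRNR2L11, at 0.77. In RPM these became 0.87, 0.95, 0.93, 0.52 and 0.47. MTRNR2L10 and MTRNR2L11 had the lowest r of the 10 pairs on that scale.

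Among 11343 other genes with a mean nuclear value of at least 50, those most like MTRNR2L1 over the 14 libraries were MALRD1 (r = 0.96), ZNF502 (0.95) and ACAP1 (0.94). MTRNR2L11 was most like 2 of the same genes, ACAP1 (0.93) and MALRD1 (0.92). For MTRNR2L2 they were ANK1 (0.97), PDIA3 (0.94) and CENPL (0.93). SIL1 (0.98) was closest to MTRNR2L8 and GLI4 (0.97) to MTRNR2L10.

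Genes around the biology of humanin were followed as lists. Of 10 genes for partners and receptors of humanin, 9 had a row, among them BAX, and 8 were tested in nuclear all reads, where 0 passed under any drug. In cytoplasmic all reads 7 were tested and 1 passed, a share near the 15.8% of all genes under IBET151-VHL. This was TRIM11, a ubiquitin ligase reported to bind humanin, which fell by 1.05 under IBET151-VHL (limma adjusted p = 0.00409). In nuclear T>C reads 4 of 6 fell under JQ1-VHL and 6 of 6 under IBET151-VHL, beside 61.7% and 85% of all genes called. The median nuclear change of the list in all reads was -0.82 under JQ1 and -0.55 under IBET151-VHL, beside -0.43 and -0.71 for all genes.

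Of 35 nuclear genes for the making, processing or modification of mitochondrial RNA, 34 were tested. In nuclear all reads 0 passed under JQ1, JQ1-VHL and IBET151, and 3 fell under IBET151-VHL, where 4.55% of all genes were called: DDX28 by 2.86 (limma adjusted p = 0.00825), TEFM by 2.21 (adjusted p = 0.0342) and FASTKD3 by 2.21 (adjusted p = 0.0367). In nuclear T>C reads 26 fell under JQ1-VHL and 33 under IBET151-VHL, where 61.7% and 85% of all genes were called. In cytoplasmic all reads 2 fell under JQ1, 8 under JQ1-VHL, 1 under IBET151 and 11 under IBET151-VHL, and 0 rose. The shares of all genes called there were 4.82%, 12.9%, 2.52% and 15.8%. DDX28, a helicase of the mitochondrial ribosome's assembly, fell by 2.92 under IBET151-VHL (adjusted p = 4.85e-07). TRMT10C, a subunit of mitochondrial RNase P, fell by 1.50 (adjusted p = 0.000399). MRM2, which methylates the 16S ribosomal RNA, fell by 1.10 (adjusted p = 0.000791), and MTERF2, a mitochondrial transcription termination factor family member, fell by 1.39 (adjusted p = 0.00179). The median cytoplasmic change of the 34 was -0.18 under IBET151-VHL, near the -0.15 of all genes.

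Of 11 RNAs chosen as retained in the nucleus, 7 were tested against DMSO in each fraction. In nuclear all reads 0 passed. In cytoplasmic all reads 1 fell under JQ1, 3 under JQ1-VHL, 1 under IBET151 and 3 under IBET151-VHL, beside the same shares of all genes (4.82%, 12.9%, 2.52% and 15.8%). In nuclear T>C reads 3 of 7 fell under JQ1-VHL and 5 of 7 under IBET151-VHL, against 61.7% and 85% of all genes. CCNL2, a cyclin of the splicing machinery, fell by 1.23 in cytoplasmic IBET151-VHL (limma adjusted p = 0.000308). The kinase CLK4 fell by 1.29 (adjusted p = 0.000426) and the cyclin CCNL1 by 1.20 (adjusted p = 0.00310).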

How the data were processed

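The authors deposited 2 tables of the whole series, all reads and T>C reads per gene, as signal scaled to ERCC RNA. Per the submitters' processing notes, bcl2fastq, Trimmomatic 0.39, HISAT2, HTSeq and DESeq2 were used, with the builds GRCh37, hg19 and dm3. How reads that match several places were counted is not given in the sources used here. Values were whole multiples of 1 step per library (100% within 0.001 of a whole read), which gave back the reads. A read was worth 0.374 to 2.24 units.

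Genes that reached 10 units (5 for T>C) in 2 or more libraries entered limma 3.58.1 (R 4.3.3) with a variance trend, on log2(value + 1), with 1 fit per fraction and 1 fit of all 28 libraries for interactions. Benjamini-Hochberg adjustment was over all genes of a comparison, at 0.05. T>C shares were compared by exact permutation of libraries. edgeR 4.0.16 and DESeq2 1.42.0 on recovered reads, other pseudocounts, filters, scalings, weights and blocks, and leaving out each library were alternatives. Scripts were tested on simulated data.

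Transcripts were aligned to MT-RNR2 with Biopython 1.88. The members and lists were chosen with earlier results of these data known. All MTRNR2L genes are named, and of each list up to 4 genes with the smallest p among those called, besides TEFM and FASTKD3, which complete a count of 3. Of the 5 most alike genes per member, up to 3 are given. Same-numbered nuclear libraries of all reads deviated together in all pairs of DMSO, JQ1, JQ1-VHL and IBET151-VHL (r of at least 0.159), but not with IBET151. The annotated surroundings of MTRNR2L2 are not reported here.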

Additional observations from a re-analysis of the deposited data

How the results depend on the processing

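The main analysis made 0 calls on members, as did edgeR and DESeq2, and several alternatives added some. For nuclear all reads, the replicate block called 1 test against DMSO (MTRNR2L11 in IBET151, 1.09, limma adjusted p = 0.0328) and 4 between compounds, all of IBET151 libraries, whose numbers were not shown to pair. It changed no other call. With the run as a block, 3 were called, all in JQ1. Weights per library called 16 against DMSO and 14 between compounds in nuclear all reads, 1 between compounds in cytoplasmic all reads, and 2 interactions. Shares of all genes called are given above only for calls against DMSO with the run block or the common-median scaling. The other counts in this paragraph stand without that share, so they cannot be read as particular to the members. In nuclear T>C reads against DMSO, the common-median scaling called 3, the run block 2 and the weights 3. Between compounds these called 2, 1 and 3, and a pseudocount of 0.5 or no filter on low values called 1 each. Of T>C interactions, the common-median scaling called 2 and the weights 1. Leaving out each library in turn gave 0 to 1 calls in nuclear T>C reads against DMSO (MTRNR2L10 in IBET151-VHL, without IBET151-VHL replicate 2 or DMSO replicate 3). It gave 0 to 1 between compounds (MTRNR2L4, IBET151-VHL against IBET151, without replicate 2 or 3 of DMSO or replicate 3 of JQ1, JQ1-VHL or IBET151-VHL), and 0 elsewhere. The median nuclear minus cytoplasmic difference of the 5 members was 5.77 to 6.65 without each DMSO library. It was 4.53 on the log2(RPM + 1) scale, where the added 1 itself lowers it. Signs turned for MTRNR2L11 in nuclear all reads under the weights, to -0.60 in JQ1, -0.50 in IBET151-VHL and 0.55 for JQ1-VHL against JQ1, and for MTRNR2L2 T>C reads (IBET151-VHL against IBET151) to 2.44 under the common-median scaling. The causes were not tested. Single T>C reads limit MTRNR2L1, MTRNR2L4, MTRNR2L8 and MTRNR2L10, and no library without 4-thiouridine gives a conversion background.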
